A study of Homo sapiens with 6 samples.

Results

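The comparison set the RNA sites of FMR1 isoform 1 carrying the I304N change against those of wild-type isoform 1. Its members were all 254122 sites of these 2 site lists, out of 464799 in the 6 lists of the series. The wild-type list held 121903 sites and the I304N list 132219. The members were chosen by library alone, and a site was called kept when it shared at least 1 nt on the same strand with a site of the other form. A wild-type site without such a partner was called lost, and an I304N site without one was called gained. These words describe membership of the lists and not a measured change of binding strength.

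All libraries came from FlpIn T-Rex HEK293 cells, a human embryonic kidney line in which a transgene sits at a fixed genomic position and is switched on by doxycycline. The wild-type and I304N isoform 1 lines each expressed FLAG-HA-tagged FMR1 isoform 1, induced over 16 h by doxycycline at 1 µg/ml while 4-thiouridine was present at 100 µM. The 4 other lines, expressing tagged wild-type FMR1 isoform 7, I304N FMR1 isoform 7, wild-type FXR1 and wild-type FXR2, had the same treatment. All cells were irradiated at 365 nm (0.15 J/sq cm), RNase T1 digestion of the lysates lasted 15 min at 22 °C, and the tagged protein was recovered with a FLAG antibody. The labels do not say whether the cells' own FMR1 was still present, and each library is 1 stable line. With 1 library per group there was no replicate error, so no difference was tested across samples. The 95% intervals given here (exact Clopper-Pearson for shares, exact conditional for ratios) cover the counting of sites only. Neighbouring sites on an RNA are not independent, which these intervals do not include.

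FMR1 encodes FMRP, an RNA-binding protein that associates with ribosomes and represses the translation of many mRNAs; its loss causes fragile X syndrome. FMRP binds RNA through KH domains and an RGG-rich region, and FXR1 and FXR2 are its autosomal paralogues. I304N is a missense change in a KH domain, found in a patient with a severe form of the syndrome, that is known to weaken the association of FMRP with polyribosomes. In PAR-CLIP, RNA labelled with 4-thiouridine is crosslinked to protein by long-wave ultraviolet light. The bound fragments are sequenced, and crosslinked positions are read from T-to-C changes.

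The changed codon is shown first because it is the designed difference between the libraries. Its number is counted from the start codon of the FMR1 transcript in GENCODE release 29 that has the most codons before its stop, 632, among the 12 FMR1 coding transcripts read. In GRCh38 the codon lies in exon 10 of this transcript on the plus strand, at chrX:147936533-147936535. The stretch printed, codons 294 to 314, begins in exon 9 and is the reference sequence and not that of the transgene. Capitals mark the isoleucine codon that I304N replaces by one for asparagine.
FMR1 codons 294 to 314: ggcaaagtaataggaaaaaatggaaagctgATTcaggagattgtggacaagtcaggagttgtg
Of the 9 coding transcripts long enough to reach this position, 8 had the same codon there.

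The site lists gave positions in hg19, written here with the first base counted as 1, and no read counts, so sequencing depth behind a site is unknown. Site width had a median of 24 nt in wild type (quartiles 19 and 31) and 23 nt in I304N (quartiles 19 and 30). The wild-type sites covered 3.60 Mb and the I304N sites 3.71 Mb, of which 1.39 Mb was common. Sites flagged as lying in repeats made up 5.35% of the wild-type list and 3.03% of the I304N list. The lists also differed in how sites were grouped in their names. The wild-type names held 92502 group numbers with a mean of 1.32 sites each, and the I304N names 112032 with a mean of 1.18. An hg19 gene annotation was not used here, so loci are named by window and strand and not by gene.

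Under 50% of the sites of either form were found in the list of the other. Of the 121903 wild-type sites, 54330 were kept (44.6%, interval 44.3 to 44.8) and 67573 were lost (55.4%). Of the 132219 I304N sites, 55077 were kept (41.7%, interval 41.4 to 41.9) and 77142 were gained (58.3%). When the overlap had to cover 50% of both sites, 28.5% of wild-type and 26.2% of I304N sites were kept. On the opposite strand, only 53 sites of each list met a site of the other, 0.0435% of the wild-type list and 0.0401% of the I304N list. For scale, the I304N isoform 1 list met I304N isoform 7 at 50.0% of its sites, more than it met wild-type isoform 1. The wild-type isoform 1 list met wild-type isoform 7 at 29.3% of its sites and I304N isoform 7 at 30.4%, less than it met I304N isoform 1. Because the isoform 7 lists are shorter (78495 wild-type and 88644 I304N sites), the shares of their own sites are the other side of this overlap. I304N isoform 1 met 66.4% of wild-type isoform 7 sites and 75.9% of I304N isoform 7 sites. Wild-type isoform 1 met 48.5% and 42.6% of them.

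The 3 classes of site differed in the other libraries, which the rule for kept, lost and gained did not use. Kept wild-type sites were found in wild-type isoform 7 at 55.7% (interval 55.3 to 56.1) and in I304N isoform 7 at 62.5% (interval 62.0 to 62.9). Gained sites were found there at 23.8% and 41.9%. Lost sites were seldom found in either, at 8.08% in wild-type isoform 7 and 4.59% in I304N isoform 7. The lost sites were therefore met less often than the gained ones even by the wild-type isoform 7 library. The paralogues gave the opposite order. FXR1 met 4.80% of kept wild-type sites, 4.99% of lost sites (interval 4.83 to 5.16) and 0.220% of gained sites (interval 0.189 to 0.256). FXR2 met 22.2% of kept, 12.3% of lost and 3.80% of gained sites. With sites of at least 60 nt left out of the lists, lost and gained sites kept their order in each of the 4 libraries, with smaller gaps between them: FXR1 met 4.47% of lost and 1.01% of gained sites, and I304N isoform 7 met 7.66% and 41%. No site of any of the 4 other libraries met 76.8% of the lost sites, 47.6% of the gained sites and 21% of the kept wild-type sites.

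**Figure D1:**
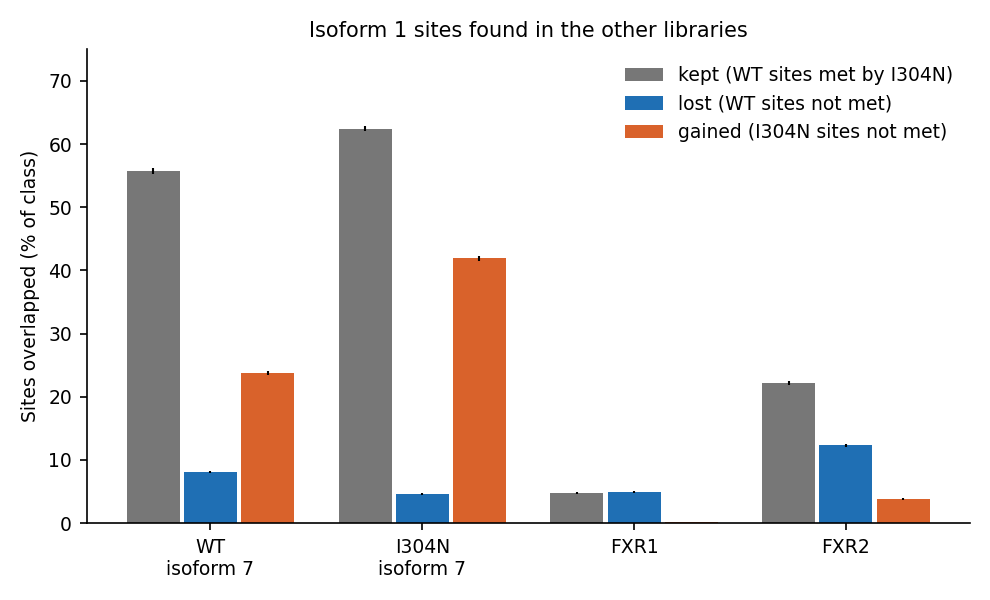
Share of isoform 1 sites (vertical axis, percent of the class) overlapped by each of the 4 other libraries (horizontal axis), for kept wild-type, lost and gained sites; error bars are exact 95% intervals for counting error. Gained sites stand above lost sites in both isoform 7 libraries, whereas lost sites stand above gained sites in FXR1 (4.99% against 0.220%) and FXR2 (12.3% against 3.80%).

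Seen from the paralogues, the difference between the forms was of the same kind. Of the 9017 FXR1 sites, wild-type isoform 1 met 70.0% (interval 69.0 to 70.9) and I304N isoform 1 met 27.4% (interval 26.5 to 28.3). Of the 34521 FXR2 sites, wild-type isoform 1 met 64.4% and I304N isoform 1 met 46.2%. The I304N list, which met fewer, is the longer of the pair and covers more nucleotides. The labels name no preparation or sequencing batch, so a batch and the form of the protein cannot be told apart.

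Wild-type sites also found in isoform 7 were kept most often. Of the 23693 wild-type isoform 1 sites found in both isoform 7 lists, 96.8% were kept (interval 96.6 to 97.1). Of the 12033 found only in the wild-type isoform 7 list, 60.9% were kept, and of the 13336 found only in the I304N isoform 7 list, 82.4%. Wild-type sites shared with an FXR protein and with neither isoform 7 list were kept at 17.7% (n = 9529). That is close to the 18% of the 63312 wild-type sites found in no other library. The I304N list ran differently: its sites in both isoform 7 lists were kept at 67.5% (n = 34076). I304N sites in the wild-type isoform 7 list only were kept at 50.7%, and those in the I304N isoform 7 list only at 33.7%. The 2478 I304N sites shared with an FXR protein and no isoform 7 list were kept at 67.9%, against 24.8% of those in no other library.

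Kept sites were wider than the rest. Their median width was 27 nt in both lists, against 22 nt for lost and for gained sites, and sites of at least 60 nt made up 11.6% of kept wild-type, 2.17% of lost and 1.55% of gained sites. Among wild-type sites of 10 to 15 nt, 28.9% were kept, and this share was higher in each wider class up to 90.8% of sites over 100 nt. In I304N the same classes ran from 24.8% to 93.9%. A wide site meets another more easily by its length alone, and how much of this order comes from length was not tested. Sites flagged as repeats were kept less often in wild type (33.0%) than other sites (45.2%). In I304N the order was the opposite, 48.1% of repeat sites and 41.5% of the others.

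The kept share had a steady order with crowding in I304N and none in wild type. I304N sites with no other I304N site within 1000 nt on the strand were kept at 28.4% (interval 27.8 to 29). The share was higher in every more crowded class, to 63.8% (interval 62.4 to 65.1) of sites with more than 20 neighbours. Wild-type sites with no neighbour were kept at 44.7%, those with 1 or 2 at 52.4% and those with 3 to 5 at 49.4%. The share was 42.3% with 6 to 10 neighbours, 39.6% with 11 to 20 and 40.1% with more than 20. A lost wild-type site had a median of 8 other wild-type sites within 1000 nt and a kept one 5. A gained I304N site had a median of 3 other I304N sites within that distance and a kept one 5.

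**Figure D2:**
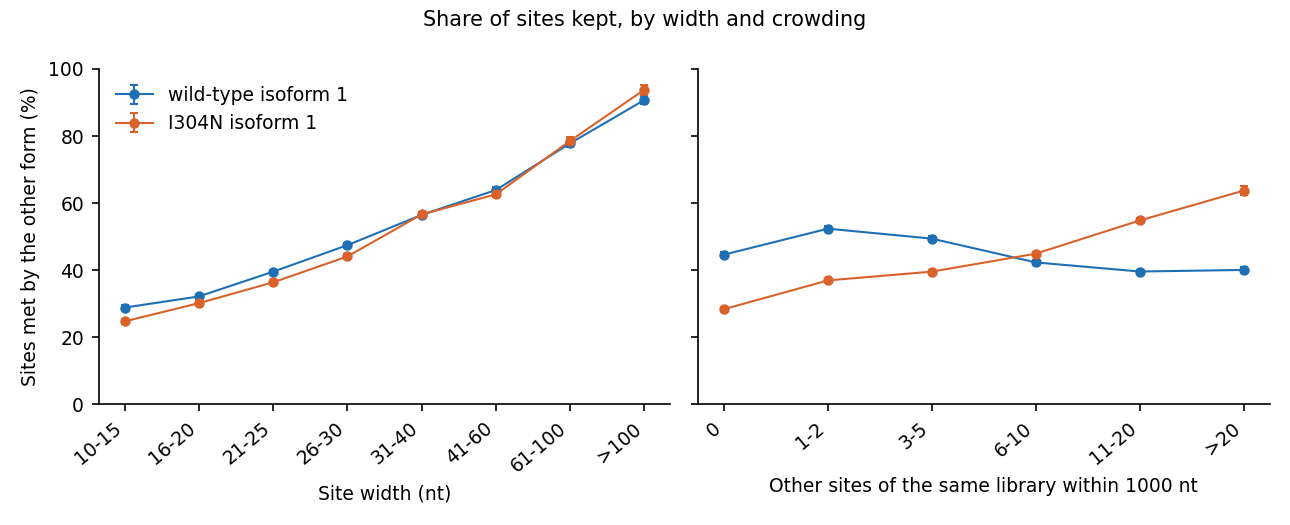
Share of sites met by the other form (vertical axis, percent) by site width in nt (left) and by the number of other sites of the same library within 1000 nt (right), with exact 95% intervals. Both forms climb with width, whereas with crowding I304N climbs from 28.4% to 63.8% and wild type ends lower (40.1%) than it starts (44.7%).

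Where a site was kept, its borders seldom coincided. Among 44591 pairs in which 1 wild-type and 1 I304N site met only each other, both ends were identical in 2.58%. The 5′ end was the same in 19.3% (interval 18.9 to 19.6) and the 3′ end in 10.1% (interval 9.85 to 10.4). The median shift was 5 nt at either end. The I304N site was the wider in 47.4% of the pairs and the wild-type site in 47.9%, with a median width of 26 nt in each form. The repeat flag differed in 1.31% of pairs. In these pairs the forms thus had the same median width, and the shift of either end had an upper quartile of 11 nt. Over all kept sites the mean width was 35.9 nt in wild type and 33.7 nt in I304N. Of these kept sites, 11.6% in wild type and 9.48% in I304N were at least 60 nt wide.

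Lost sites lay near I304N sites, and gained sites lay farther from wild-type sites. The nearest I304N site on the same strand was a median of 176 nt from a lost site (quartiles 44 and 863), and 76.7% of lost sites had one within 1000 nt. The nearest wild-type site was a median of 635 nt from a gained site (quartiles 70 and 8160), and 54.8% had one within 1000 nt. Within 50000 nt the shares were 97.2% of lost and 87.9% of gained sites. Most lost sites were therefore in stretches that still held I304N sites.

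The ratio of the forms differed with the length of blocks joined from the sites of both. Isoform 1 sites of both lists were joined into blocks wherever the gap between neighbours was at most 200 nt. Blocks under 100 nt held 24.1% of wild-type and 32.4% of I304N sites, a ratio of shares of 1.34 (interval 1.32 to 1.36). Blocks of 1000 nt to under 3000 nt held 22.6% of wild-type and 15.7% of I304N sites, a ratio of 0.696. The 258 blocks of at least 3000 nt held 9.96% and 6.66%, a ratio of 0.669 (interval 0.651 to 0.688). In these long blocks 50.6% of the wild-type sites and 80.6% of the I304N sites were kept, against 38.5% and 26.2% in blocks under 100 nt. The I304N share was higher in each longer class. The wild-type share had no steady order, with 51.8% in blocks of 100 nt to under 300 nt and 42.8% in those of 300 nt to under 1000 nt. I304N thus had fewer sites in long blocks, and those it had mostly lay on wild-type sites.

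In the same blocks the ratio of I304N to wild type for isoform 7 spanned a narrower range. It was 1.10 in blocks under 100 nt, 1.15 (interval 1.13 to 1.18) in blocks of 300 nt to under 1000 nt and 0.906 (interval 0.875 to 0.938) in blocks of at least 3000 nt. FXR1 had 18.1% of its sites in the 258 longest blocks and FXR2 13.0%, compared with 8.30% for wild-type and 7.52% for I304N isoform 7. The share of lost sites also found in FXR1 was 2.88% in blocks under 100 nt and 10.5% in the longest blocks. For gained sites it was 0.240% and 0.817%. Chromosomes 16, 17, 19, 20 and 22 had the highest ratios of the I304N to the wild-type share of sites. Chromosomes 9 (1.12) and 11 (1.06) were also above 1 and were not set apart. The ratio in blocks of at least 1000 nt was 0.688 over all chromosomes. It was 0.700 without chromosomes 16, 17, 19, 20 and 22 and 0.632 on these alone. The blocks were built from the 2 lists being compared, so the isoform 1 ratios are a description. How much of their order comes from building the blocks this way was not tested.

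**Figure D3:**
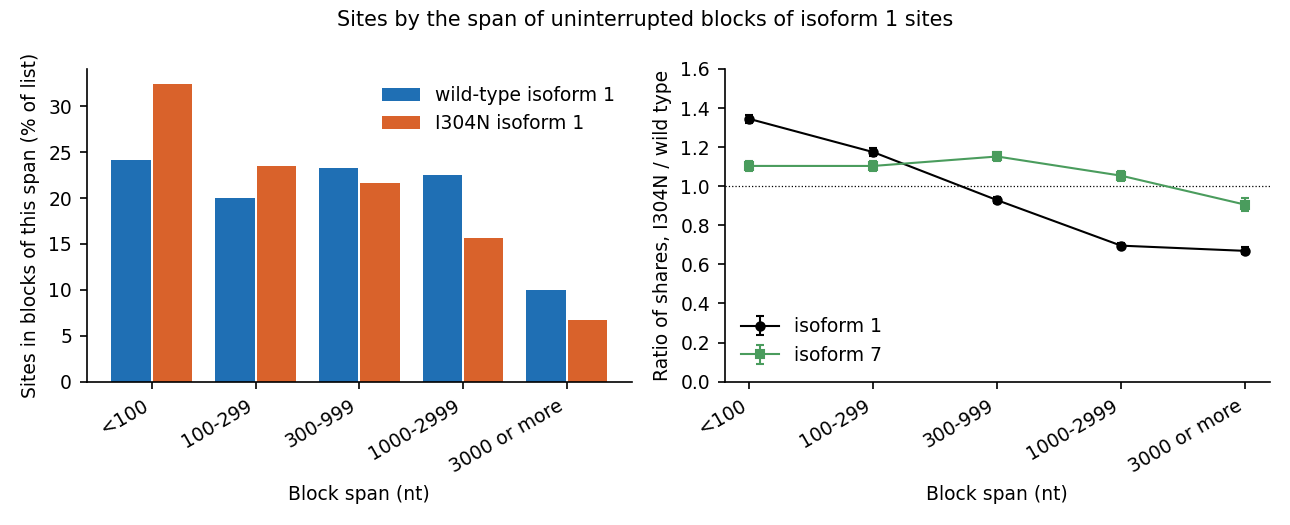
Left, share of each isoform 1 list (percent) in blocks of a given span in nt; right, ratio of the I304N to the wild-type share in the same blocks for isoform 1 (black) and isoform 7 (green), with exact 95% intervals. The isoform 1 ratio goes from 1.34 in the shortest to 0.669 in the longest blocks, and that of isoform 7 from 1.10 to 0.906.

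Clusters of one form that held no site of the other were mostly small. With sites of a library joined at gaps of up to 1000 nt, wild type formed 29920 clusters, of which 36.9% held no I304N site, and I304N formed 40644, of which 52.8% held no wild-type site. At gaps of up to 200 nt the clusters numbered 47331 and 62064, and at gaps of up to 5000 nt 16765 and 22647. Among single sites these shares were 55.4% for wild type and 71.7% for I304N. Among clusters of at least 5 sites they were 5.57% (interval 4.94 to 6.25) and 15.6% (interval 14.7 to 16.5). Among clusters of at least 20 sites, 8 of 1281 in wild type and 10 of 920 in I304N had no site of the other form. Wild type had 41.7% of its sites in such large clusters and I304N 23%.

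The wild-type cluster with most sites lay at chr10:62553643-62572931 on the plus strand and held 202 wild-type and 124 I304N isoform 1 sites. The same span held 30 wild-type and 154 I304N isoform 7 sites, 47 FXR1 sites and 82 FXR2 sites. Wild-type isoform 7 was thus thin where the other libraries were dense. In the plus-strand cluster at chr10:98740622-98755613, the counts were 196 wild-type, 135 I304N, 101 wild-type isoform 7, 130 I304N isoform 7, 19 FXR1 and 66 FXR2 sites. The minus-strand cluster at chr11:62283428-62301374 had 179 wild-type and 135 I304N sites, 76 and 80 isoform 7 sites, no FXR1 site and 3 FXR2 sites. This stretch was dense for all 4 FMR1 libraries and nearly empty for the paralogues.

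Large clusters exclusive to 1 of the 2 forms differed in what else was found there. The largest wild-type cluster without I304N, chr1:198288715-198291399 on the plus strand, held 31 wild-type sites. It also held 1 wild-type and no I304N isoform 7 site, 6 FXR1 sites and 13 FXR2 sites. Counting 3 sites as the floor for a list with none, wild type was at least 11.2-fold higher there after scaling to list size. Such a bound leaves out the counting error of the list that has sites. The next, chr12:76745855-76749765 on the minus strand, held 28 wild-type sites, 5 and 0 isoform 7 sites, 5 FXR1 and 9 FXR2 sites. The largest I304N cluster without wild type, chr16:2024218-2028399 on the plus strand, held 30 I304N sites (at least 9.22-fold higher). It also held 4 wild-type and 23 I304N isoform 7 sites and no FXR1 or FXR2 site. At chr1:9661257-9664692 on the plus strand there were 28 I304N sites, 1 wild-type and 32 I304N isoform 7 sites, no FXR1 site and 2 FXR2 sites. At chr16:731809-737667 on the minus strand there were 25 I304N sites, and here wild-type isoform 7 had more sites (9) than I304N isoform 7 (3). All 5 of the largest wild-type clusters without I304N held FXR1 and FXR2 sites. None of the 5 I304N counterparts held an FXR1 site. Of these, FXR2 had 2 sites in that at chr1:9661257-9664692 and 1 in that at chr2:27258067-27264264 on the plus strand. Over the whole lists, wild-type isoform 1 met 70.0% of FXR1 sites and I304N isoform 1 met 27.4%. The FXR content of all exclusive clusters was not counted.

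**Figure D4:**
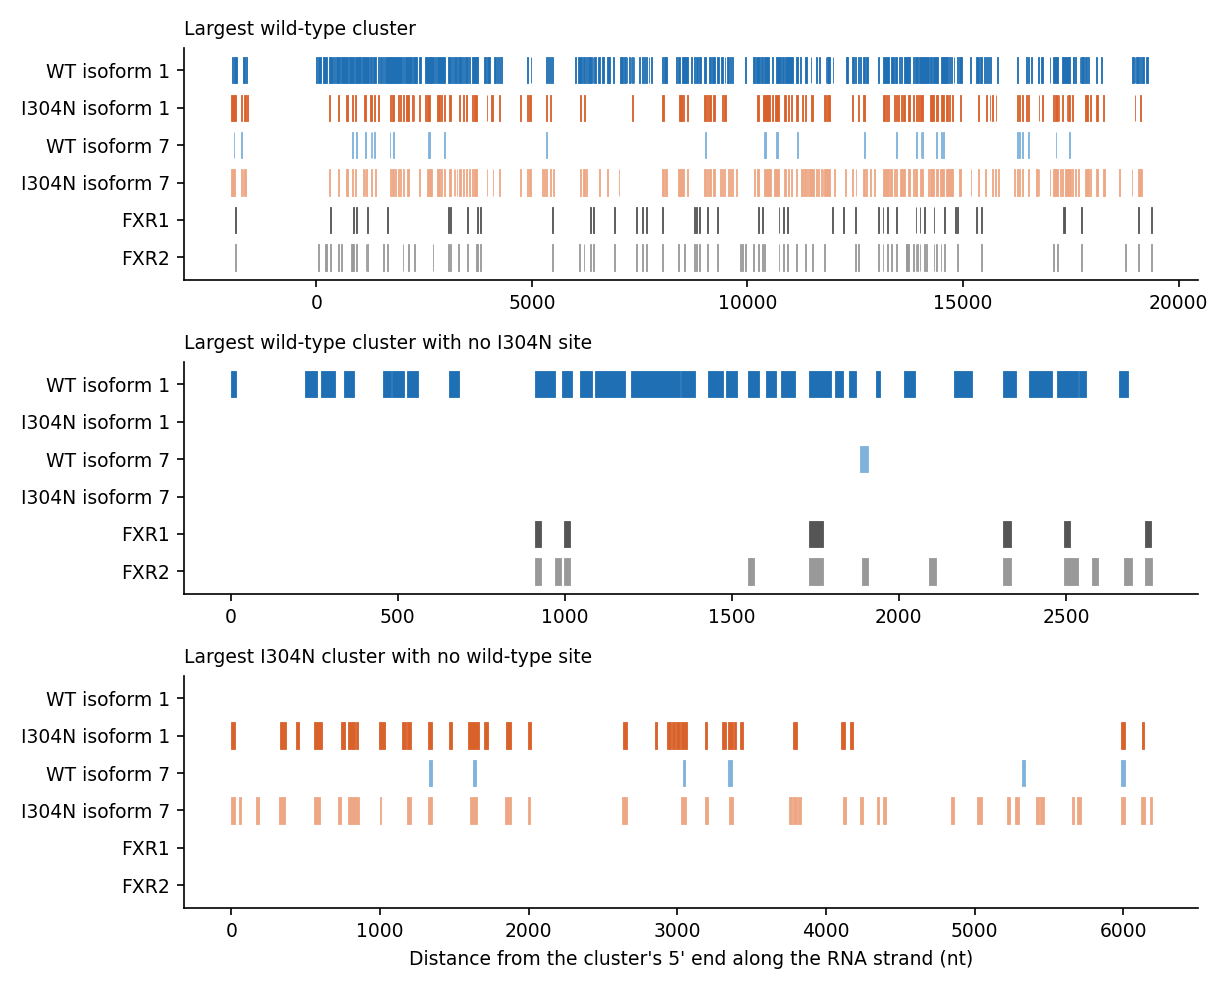
Position of every site of the 6 libraries (rows) along 3 clusters, in nt from the 5′ end of the cluster on the RNA strand; each bar spans a site, and sites just outside the cluster are drawn where they fall in view. The top panel is the 202-site wild-type cluster, the middle panel shows 31 wild-type sites with FXR1 and FXR2 sites and no I304N site, and the bottom panel shows 30 I304N sites inside the cluster beside I304N isoform 7 sites.

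Local density was counted per 50 kb window and strand, scaled to 100000 sites per library, and compared as a log2 ratio after adding 1 scaled site. Of 16962 windows with an isoform 1 site, 7867 had a mean of at least 2 scaled sites. I304N was at least 2-fold higher in 2354 of these (29.9%) and at least 2-fold lower in 1602 (20.4%), and the median log2 ratio was 0.12. With 1 library per form these counts are descriptions of size, without a test. They were 1369 and 870 with a pseudocount of 5, and 4336 and 1955 without the minimum. Windows with I304N sites and no wild-type site numbered 5440 and held 10.5% of I304N sites. The reverse, wild type without I304N, was seen in 1920 windows with 2.57% of wild-type sites. Over all windows with a site, grouped by summed density, the ratio of I304N to wild type was 1.89 (interval 1.84 to 1.94) in windows with under 5 summed scaled sites. It was 0.757 (interval 0.740 to 0.776) in those with at least 100. Grouped by either list alone, the trend was not the same. By wild-type sites the ratio was 2.17 in windows with 1 site and 0.587 in those with over 100. By I304N sites it was 1.23 in windows with 1 site, 0.890 in those with 6 to 10 and 0.959 in those with over 100, with no trend. A grouping by 1 list fixes part of the ratio by itself. In the grouping by summed density, the share of wild-type sites kept was 26.6% in the thinnest class and 58.2% in the densest.

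**Figure D5:**
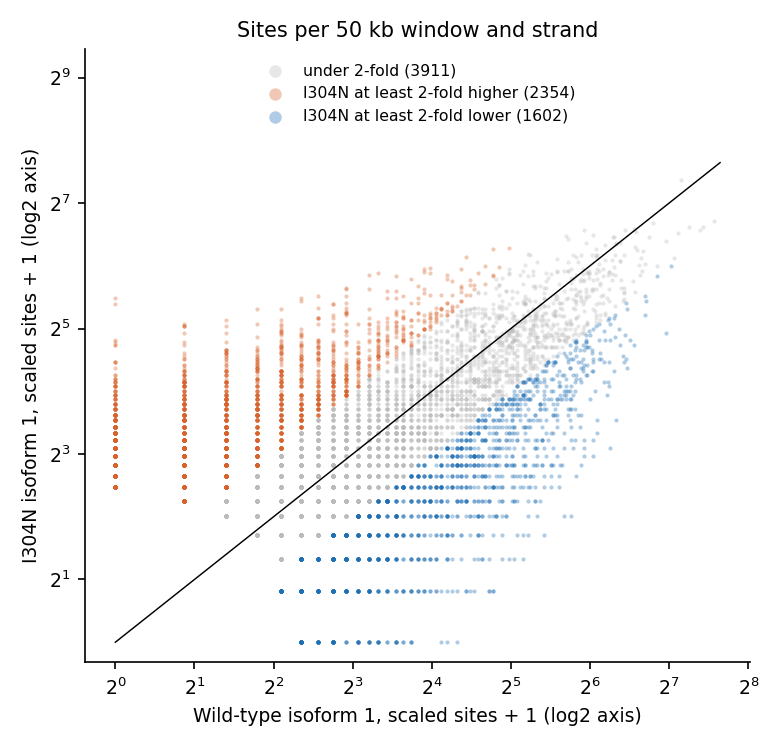
Scaled sites plus 1 per 50 kb window and strand in wild-type (horizontal) and I304N isoform 1 (vertical), both axes log2; the line marks equal density, and the 7867 windows are coloured by the 2-fold limit. The 2354 windows at least 2-fold higher in I304N lie above the line and the 1602 at least 2-fold lower lie below it; the wild-type axis is the denominator of the ratio, so the place of a class along it is part of how the class is defined.

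The windows also differed in libraries that played no part in choosing them. The 2354 higher windows held 29.6% of I304N and 6.30% of wild-type isoform 1 sites. They held 33.0% of I304N and 19.4% of wild-type isoform 7 sites, 2.78% of FXR1 sites (interval 2.45 to 3.14) and 9.87% of FXR2 sites. The 1602 lower windows held 9.57% of I304N and 33.4% of wild-type isoform 1 sites. They held 7.46% and 12.3% of I304N and wild-type isoform 7 sites, 33.0% of FXR1 sites (interval 32.0 to 34.0) and 25.3% of FXR2 sites. FXR1 sites were present in 55.4% of the lower, 36.8% of the remaining 3911 and 7.18% of the higher windows. The classes differed in density: the median window had 19 wild-type and 5 I304N sites in the lower class, 10 and 11 in the remaining one, and 2 and 12 in the higher one. Only 1791 of the 2354 higher windows held a wild-type site, so the others passed the minimum through I304N alone. The part of density in the FXR1 shares was not tested. In isoform 7 itself, I304N was at least 2-fold higher in 41.1% and at least 2-fold lower in 10.7% of the higher windows. In the lower windows these shares were 8.05% and 41.2%, and in the remaining windows 12.6% and 22.8%.

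The 12 windows with the highest ratio all had no wild-type isoform 1 site, against 24 to 58 I304N sites. The first was chr7:1500001-1550000 on the minus strand, with 0 wild-type and 58 I304N isoform 1 sites, 19 wild-type and 40 I304N isoform 7 sites, 0 FXR1 and 2 FXR2 sites. Against the floor of 3 sites, I304N isoform 1 was at least 17.8-fold higher. The exact interval of the ratio, which also holds the counting error of the I304N sites, had a lower limit of 14.0. In chr16:2000001-2050000 on the plus strand the 6 libraries had 0, 54, 13, 61, 0 and 1 sites in the same order (at least 16.6-fold higher against the floor, lower limit 13.0). The plus strand of chr1:9650001-9700000 had 0, 36, 3, 50, 0 and 2 sites, and chr16:31450001-31500000 had 0, 35, 4, 24, 1 and 1. Wild-type isoform 7 was present at all 12, with 2 to 20 sites, and I304N isoform 7 had 3 to 61. Such presence is common: 92.3% of all 2354 higher windows contained wild-type isoform 7 sites. The same was true of 95.1% of the remaining and 89.1% of the lower windows. The 12 were picked by their high ratio, so the lack of wild-type isoform 1 sites there is part of the choice. FXR1 had 1 site over the 12 windows together and FXR2 had 12. Chromosome 16 held 4 of the 12, among them both strands of 700001-750000, each with 34 I304N isoform 1 sites.

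The 12 windows with the lowest ratio had 15 to 65 wild-type and 0 to 4 I304N isoform 1 sites. In chr7:77550001-77600000 on the plus strand the libraries held 23 wild-type and 0 I304N isoform 1 sites, 3 wild-type and 1 I304N isoform 7 sites, 1 FXR1 and 2 FXR2 sites. Against the floor, I304N was at least 8.32-fold lower there, and the exact interval of the ratio of I304N to wild type had an upper limit of 0.160. In chr6:72000001-72050000 on the plus strand there were 65 and 4 isoform 1 sites, a ratio of scaled densities of 0.0567 (interval 0.0150 to 0.152). That window held 10 and 4 isoform 7 sites, 1 FXR1 and 6 FXR2 sites. In chr12:21650001-21700000 on the plus strand there were 32 and 1 isoform 1 sites, no isoform 7 site, 8 FXR1 and 3 FXR2 sites. In chr2:139300001-139350000 on the plus strand there were 42 and 2 isoform 1 sites, 6 and 2 isoform 7 sites, 4 FXR1 and 11 FXR2 sites. Over all 12, wild-type isoform 7 had 29 sites and I304N isoform 7 had 14, so both isoform 7 libraries were thin where wild-type isoform 1 was dense. FXR1 had 29 sites and FXR2 66. These windows were picked as the ends of the distribution, so their isoform 1 ratios are a description.

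The densest windows were picked by density, so differences smaller than at the ends of the distribution follow from the choice. Among the 8 densest for wild type, only the chromosome 12 window below was higher in I304N. In chr5:44800001-44850000 on the plus strand, also among these 8, there were 158 and 83 isoform 1 sites. The ratio there was 0.484 (interval 0.367 to 0.636), with a log2 ratio of -1.03, and -0.99 with a pseudocount of 5. In chr19:57800001-57850000 on the plus strand, the densest for wild type, there were 230 wild-type and 138 I304N sites, a ratio of 0.553 (interval 0.445 to 0.686). Isoform 7 had 80 wild-type and 120 I304N sites, FXR1 33 and FXR2 65. In chr10:62550001-62600000 on the plus strand there were 208 and 129 isoform 1 sites, a ratio of 0.572, while isoform 7 had 32 and 159, a ratio of 4.40 (interval 2.99 to 6.65). The directions of the 2 isoforms were thus opposite there, with intervals for counting error that do not overlap. In chr12:49400001-49450000 on the minus strand, the densest for I304N, there were 172 wild-type and 216 I304N sites. Its ratio of 1.16 had an interval from 0.943 to 1.42 that includes 1. The direction was the reverse when sites within 20 nt were joined before counting, with a log2 ratio of -0.028 in place of 0.21. Of the wild-type sites in this window 92.4% were kept, compared with 50.0% in each of the windows on chromosomes 19 and 10. For I304N sites the order was the reverse. In the chromosome 12 window 63.0% of them were kept, against 78.3% on chromosome 19 and 86.0% on chromosome 10.

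At nearly equal scaled site counts a part of the sites still differed. In the 8 densest windows with an absolute log2 ratio under 0.1, from 68.0% to 97.9% of the wild-type sites were kept. Their near equality was one of site counts and not of nucleotides covered. With nucleotides in place of sites, their log2 ratios ran from -0.73 (chr12:54600001-54650000, minus) to 0.84 (chrX:153550001-153600000, minus). In chr10:129900001-129950000 on the minus strand there were 113 wild-type and 126 I304N sites, a log2 ratio of 0.04. There, 74.3% of the wild-type and 93.7% of the I304N sites were kept. In chrX:153550001-153600000 on the minus strand there were 97 and 106 sites, and 97.9% of the wild-type but 71.7% of the I304N sites were kept. In chr19:40300001-40350000 on the minus strand there were 97 and 107 sites, of which 68.0% and 59.8% were kept. Among all 170 windows with at least 50 sites of each form, whatever their ratio, the share of wild-type sites kept had a median of 64.3%. Its quartiles were 52.2% and 79.5%. For I304N sites the median share kept was 78.4%. The lowest wild-type share, 32.5%, was in chrX:73050001-73100000 on the minus strand, with 126 wild-type and 56 I304N sites. Of the I304N sites there, 80.4% were kept. The highest wild-type share, 100%, was in chr17:7400001-7450000 on the plus strand, with 56 wild-type and 50 I304N sites, the latter kept at 90%.

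The share of sites per chromosome differed between the forms in opposite directions. On 7 of 23 chromosomes (1 to 22 and X) the I304N share was higher with an interval above 1, on 15 it was lower with an interval below 1, and on chromosome 21 the interval held 1. The ratio of the I304N to the wild-type share was highest on chromosomes 19 (1.66), 22 (1.63) and 16 (1.63), and lowest on 13 (0.686) and 18 (0.694). Wild-type sites were kept most often on chromosome 22 (63.2%, interval 61.2 to 65.1) and least often on 18 (30.6%, interval 28.5 to 32.7). I304N sites were kept most often on chromosome 5 (51.4%) and least often on 19 (29.1%). On chromosome 16 the isoform 7 ratio was 0.959 (interval 0.919 to 1.00), against 1.63 in isoform 1. On chromosome 19 the isoform 7 ratio was 1.59, near that of isoform 1.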

How the data were processed

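The series measured RNA sites by PAR-CLIP in 6 libraries, 1 per group. Alignment used Bowtie 0.12.7 and the build hg19, per the submitters' processing notes; which site caller and thresholds followed is not given in the sources used here. The deposited lists give the chromosome, start, end, name and strand of each site, and a score, which per the file headers is 0 for repeat and 1000 for non-repeat sites. The lists hold no read counts. The score was used only as that flag.

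Overlaps of at least 1 nt on the same strand, distances, clusters (gaps of up to 1000 nt), joint blocks (gaps of up to 200 nt) and windows of 50 kb were computed with Python 3.11.15, numpy 2.4.6, pandas 2.3.3 and scipy 1.17.1, with the overlap code tested on simulated data against bedtools 2.31.1. Density was scaled to 100000 sites per library, with a pseudocount of 1 and a minimum mean of 2 scaled sites; a list without sites was set to 3 sites for bounds on ratios. Named windows were the 12 highest and 12 lowest log2 ratios (mean of at least 4 scaled sites), the 8 densest in each list and the 8 densest with an absolute log2 ratio under 0.1. Named clusters were the 5 with most sites in each list, with and without sites of the other form; the text gives examples of each set. Examples for the share of kept sites were chosen after their values were seen. Gene names and site sequences were planned if an hg19 annotation and genome were at hand and were not used here. The members and lists were chosen with earlier results of these data known. Alternatives are in the closing section.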

Additional observations from a re-analysis of the deposited data

Results flagged for a closer look

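In 3 of the 24 windows at the ends of the isoform 1 distribution, the isoform 7 log2 ratio had the opposite sign. These differences were not tested. On the plus strand of chr16:700001-750000 isoform 1 had 0 wild-type and 34 I304N sites, while isoform 7 had 20 and 15, a log2 ratio of -0.56. The isoform 7 ratio of 0.664 there had an interval from 0.316 to 1.36 that includes 1. On the minus strand of the same window isoform 1 again had 0 and 34, and isoform 7 had 11 and 3, a log2 ratio of -1.78. The isoform 7 ratio there was 0.242 (interval 0.0433 to 0.914). On the plus strand of chr5:139500001-139550000 isoform 1 had 15 and 0 sites, and isoform 7 had 1 and 2, a log2 ratio of 0.52 that rests on 3 sites. The interval of that isoform 7 ratio, 0.0922 to 104, includes 1. Among the 8 densest wild-type windows, 2 on the plus strand had intervals on opposite sides of 1. In chr10:62550001-62600000 the counts were 208 and 129 in isoform 1 and 32 and 159 in isoform 7 (log2 ratio 2.11). In chr19:44650001-44700000 they were 161 and 91 in isoform 1 and 28 and 54 in isoform 7 (log2 ratio 0.76).

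The 2 isoforms also went opposite ways on chromosomes 7 and 14, again without a test of the difference. On chromosome 7 the ratio of the I304N to the wild-type share of sites was 0.944 (interval 0.909 to 0.980) in isoform 1 and 1.21 (interval 1.16 to 1.27) in isoform 7. On chromosome 14 it was 0.913 (interval 0.874 to 0.955) in isoform 1 and 1.33 (interval 1.26 to 1.40) in isoform 7.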

How the results depend on the processing

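No paired analysis was possible because each group has 1 library. Kept shares were 51.8% of wild-type and 47.9% of I304N sites where a gap of up to 20 nt counted as shared, the one alternative run that took a share past 50%. With an overlap of 50% of the shorter site the shares were 42.5% and 39.8%, with 50% of both sites 28.5% and 26.2%, without repeat sites 45.0% and 40.9%, and without sites of 60 nt or more 37.3% and 33.8%. Over sites alone within 1000 nt, 28.4% of I304N sites were kept.

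Windows at least 2-fold higher and lower numbered 1369 and 870 with a pseudocount of 5. The higher windows numbered 4336 without the filter and 1502 with a minimum of 4 scaled sites (lower: 1955 and 1288). Higher windows were 59.5% of those past 2-fold, 66.9% after median-of-ratios scaling, 68.9% without the filter, 54.6% with windows of 10 kb and 53.8% with the minimum of 4. The median log2 ratio was 0.12, 0.31, 0.50, -0.050 and -0.040 in that order, so its sign turned in the last 2. With sites within 20 nt joined, 3 dense windows with an absolute log2 ratio of at least 0.1 changed sign. These were chr13:23900001-23950000 (minus) with 0.081 in place of -0.63, chr12:49400001-49450000 (minus) with -0.028 in place of 0.21, and chr4:187500001-187550000 (minus) with 0.075 in place of -0.12. Of the dense windows under 0.1, chr12:54600001-54650000 (minus) had 0.25 in place of -0.019. The sign also changed in chrX:153550001-153600000 (minus), with -0.31 in place of 0.011. The 24 windows at the ends of the distribution stayed on their side of 2-fold under the 5 alternatives run on them.

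Clusters without the other form were 43.1% of 47331 (wild type) and 54.7% of 62064 (I304N) at gaps of up to 200 nt, and 33.5% of 16765 and 50.8% of 22647 at gaps of up to 5000 nt. With 50% of the shorter site required, kept sites were in wild-type and I304N isoform 7 at 55.1% and 62.0%, lost sites in wild-type isoform 7 at 7.60%, and gained sites in wild-type isoform 7, I304N isoform 7, FXR1 and FXR2 at 23.2%, 40.7%, 0.157% and 3.30%. Without sites of 60 nt or more, the shares in wild-type isoform 7, I304N isoform 7, FXR1 and FXR2 were 49.2%, 53.9%, 2.94% and 16.7% for kept, 12.1%, 7.66%, 4.47% and 13.1% for lost, and 26.2%, 41%, 1.01% and 6.0% for gained sites.

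Alternatives chosen after seeing the data gave ratios in blocks of at least 1000 nt of 0.708 and 0.725 (gaps of up to 100 and 500 nt), 0.700 (5 chromosomes left out) and 0.743 (sites within 20 nt joined), against 0.688. Without sites of 60 nt or more, 77.5% of lost and 57.9% of gained sites lay within 1000 nt of the other form. Depth per site is unknown, so a site missing from a list may be a site below the authors' threshold.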

Other observations

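Mitochondrial sites differed by strand between the forms. Wild-type isoform 1 had 125 sites on the plus and 21 on the minus strand, and I304N isoform 1 had 31 and 41. Wild-type isoform 7 had 143 and 99, I304N isoform 7 had 31 and 55, and FXR1 (18) and FXR2 (35) had all theirs on the plus strand.

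The group numbers in the site names, whose meaning is not given in the sources used here, held more than 1 site for 39.2% of wild-type and 26.9% of I304N isoform 1 sites. The corresponding shares were 11.3% and 26.7% in wild-type and I304N isoform 7, 0.377% in FXR1 and 3.40% in FXR2. Isoform 1 in wild type thus had the largest share of the 6 libraries and the 2 I304N lists had nearly equal shares.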
